A study of Rattus norvegicus with 105 samples.

Results

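The genes described here encode subunits of the mitochondrial respiratory chain and of ATP synthase. They are the probe sets of a rat expression array whose only annotated symbol is an Nduf gene of the a, b, c, s or v series, an Sdh gene of the a to d series, a Uqcr gene, a Cox4 to Cox8 gene or an Atp5 gene. The rule found 73 genes among the 22954 probe sets tested, of which 14855 carried 1 symbol, and no symbol was repeated. By name, 33 belong to complex I, 4 to complex II, 8 to complex III, 14 to complex IV and 14 to complex V. The rule uses names alone and no measured value.

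Complexes I, III and IV pump protons out of the mitochondrial matrix as electrons pass from NADH to oxygen, complex II feeds in electrons from succinate, and complex V uses the returning protons to make ATP. All the genes here are nuclear, and their products are assembled with a few subunits encoded in mitochondrial DNA. In skeletal muscle the respiratory chain is known to be most abundant in slow and in fast oxidative fibres.

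Gastrocnemius muscle came from male Sprague-Dawley rats that were about 30 d old on arrival and carried 4 metal pellets, 2 in each limb, for 1, 3, 6 or 12 months. Pellets were cylinders 1 mm across and 2 mm long, made of lead, nickel, tungsten, iron, cobalt, depleted uranium, copper, aluminum or tantalum. Tantalum was the implanted control, so every group had surgery and a foreign object. The Clariom S arrays form 35 groups of metal and month with 3 arrays each (nickel at 12 months was not analysed here), and each array read 250 ng of RNA pooled from 2 to 3 of the 8 rats assigned to a metal and month. A p-value therefore measures the spread between pools. Animals of different months are different animals, so that time since implant, age and the occasion of processing cannot be told apart. All values are log2 intensities, differences are on the same scale and are given ± SE from the model, and the brightness of one probe set is not compared with that of another.

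Many promoters of respiratory chain genes are known to bind NRF1, factors of the ETS family such as GABP, and YY1. A promoter here is the 250 bases before and 50 bases after the start of a gene in RefSeq, build GRCr8, and 65 of the 73 genes had an entry. On either strand, the NRF1 motif GCATGCGC was present in 8 of the 65 (12.3%, against 2.47% of 33469 promoters) and the ETS motif CCGGAAG in 20 (30.8% against 8.75%). The YY1 motif AAGATGGCG was present in 9 (13.8% against 1.73%) and the SP1 motif GGGCGG, which occurs widely, in 28 (43.1% against 33.1%). At least 1 of NRF1, ETS and YY1 was present in 30 of the 65 (46.2%, against 12.0% of all). The 33469 promoters outnumber the 22954 probe sets tested and were not limited to genes expressed in muscle. How the shares compare with those of other muscle-expressed genes was not tested. A match is a string of letters, not a measured binding site. Promoters are shown for 3 genes that were lower and 1 that was higher at 12 months than at 1 month, with NRF1, ETS and YY1 matches in capitals: Uqcrq (chr10:38089929-38090228, minus strand, an ETS match), Ndufa11 (chr9:1637364-1637663, plus strand, NRF1 matches on both strands that overlap), Ndufb11 (chrX:4126067-4126366, plus strand, no match) and Cox8c (chr6:127793129-127793428, plus strand, an NRF1 match). They are written 5′ to 3′ along the gene.
Uqcrq: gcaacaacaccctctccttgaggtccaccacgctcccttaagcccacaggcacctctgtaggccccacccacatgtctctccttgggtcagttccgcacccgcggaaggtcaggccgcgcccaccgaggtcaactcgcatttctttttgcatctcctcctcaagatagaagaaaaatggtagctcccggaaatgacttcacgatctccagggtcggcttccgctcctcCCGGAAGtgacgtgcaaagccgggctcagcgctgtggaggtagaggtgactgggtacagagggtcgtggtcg
Ndufa11: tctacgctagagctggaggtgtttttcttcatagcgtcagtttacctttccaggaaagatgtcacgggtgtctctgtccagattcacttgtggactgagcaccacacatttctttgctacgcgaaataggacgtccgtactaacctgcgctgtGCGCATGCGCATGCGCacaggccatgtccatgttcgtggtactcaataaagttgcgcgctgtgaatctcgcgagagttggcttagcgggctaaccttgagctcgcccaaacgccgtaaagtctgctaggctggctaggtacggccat
Ndufb11: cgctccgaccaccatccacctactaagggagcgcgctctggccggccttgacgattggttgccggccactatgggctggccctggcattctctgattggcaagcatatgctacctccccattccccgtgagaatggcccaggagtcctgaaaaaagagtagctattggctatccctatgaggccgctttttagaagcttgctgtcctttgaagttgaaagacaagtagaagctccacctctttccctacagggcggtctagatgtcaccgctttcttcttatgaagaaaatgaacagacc
Cox8c: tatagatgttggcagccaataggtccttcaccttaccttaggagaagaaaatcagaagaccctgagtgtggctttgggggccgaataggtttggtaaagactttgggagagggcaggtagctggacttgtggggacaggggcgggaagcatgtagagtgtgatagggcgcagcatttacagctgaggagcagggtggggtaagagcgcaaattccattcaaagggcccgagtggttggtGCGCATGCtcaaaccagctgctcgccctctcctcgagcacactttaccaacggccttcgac

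Of the 65 genes with a promoter, 41 were lower, 4 higher and 20 not called at 12 months against 1 month. The NRF1 motif was in 6 of the lower, 1 of the higher and 1 of the other genes, the ETS motif in 12, 1 and 7, and the YY1 motif in 5, 0 and 4.

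For the labelled tissue, the mean level of 8 skeletal muscle genes lay between 12.44 and 13.24 on all arrays, against a median of 4.09 for the control probe sets. All 73 genes lay above the median of the control probe sets on every array, and 69 lay above the brightest control probe set on every array. Of the other 4, Ndufa2 lay above it on 83 arrays, and Cox8c, Ndufa4l2 and Cox4i2 on 0. Each array correlated with the other arrays by at least 0.970 on average. The muscle genes were lowest on 3 arrays of 6 months: lead replicate 3 (12.44), aluminum replicate 1 (12.48) and tungsten replicate 3 (12.67), against a median of 13.13 in that month. Many genes of this kind have near-identical copies or pseudogenes, and how far a probe set also reads those was not tested.

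At the later months the arrays separated by replicate number. The mean level over the 73 genes lay between 10.35 and 10.57 on the 27 arrays of 1 month (median 10.49), between 10.25 and 10.56 at 3 months (median 10.36), between 9.91 and 10.46 at 6 months (median 10.32) and between 9.91 and 10.45 on the 24 arrays of 12 months (median 10.31). Replicate 1 was the lowest of its group in 8 of 9 groups at 6 months and in 8 of 8 at 12 months, against 3 of 9 and 5 of 9 at 1 and 3 months. Its arrays averaged 10.15 at 6 months, against 10.40 for replicate 2 and 10.29 for replicate 3, and at 12 months the averages were 10.12, 10.38 and 10.31. At 1 month they were 10.48, 10.47 and 10.48.

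The median gene was lower in replicate 1 than in the mean of replicates 2 and 3 by a log2 difference of -0.17 at 6 months and -0.18 at 12 months, while the median over all 22954 probe sets was 0.01 and 0.02. The SD of the mean level within a group of 3 had a median of 0.03, 0.02, 0.13 and 0.13 at 1, 3, 6 and 12 months. The labels do not say what a replicate number stands for. For the respiratory chain genes described by complex below, the value without replicate 1 is given where leaving it out ended a call between 1 and 12 months or moved the size of a called difference by over 1.5 times.

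**Figure D1:**
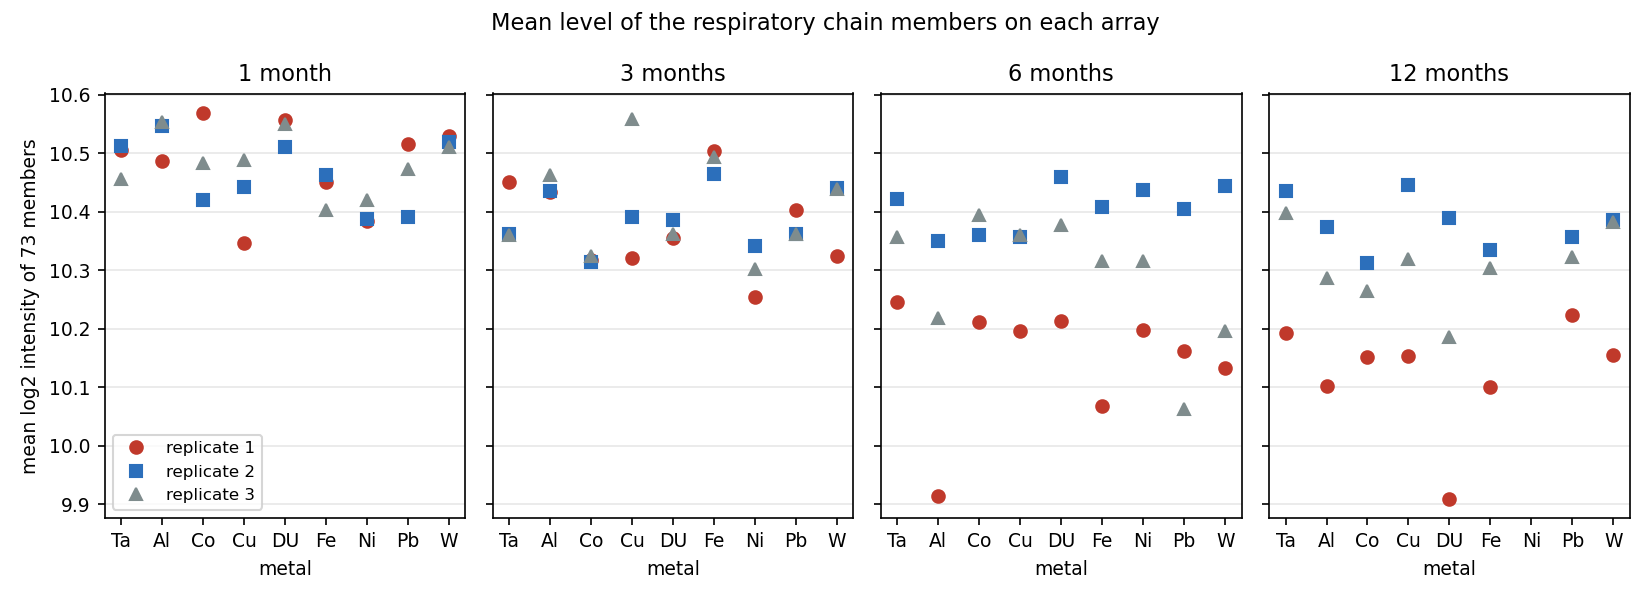
Mean log2 intensity of the 73 respiratory chain genes on each array (vertical axis) by metal (horizontal axis) and month (panels), with 1 point per array and a symbol for each replicate number. At 1 month the arrays lie between 10.35 and 10.57, and at 6 and 12 months replicate 1 is the lowest of its group in all groups but lead at 6 months.

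Over the metals, the respiratory chain genes were on balance lower at 12 months than at 1 month, tantalum included. Over the 8 metals present at both months (24 arrays each), 46 of the 73 were lower and 4 higher, where 20.7% of all 22954 probe sets were lower and 23.4% higher (limma, adjusted p below 0.05). The median difference was -0.18 over the 73 and 0.02 over all probe sets. The largest fall, that of Uqcrq, was 38.6% of the intensity, the median fall among the 46 was 20.6%, and 5 genes were lower by at least 0.5. Of the 46, 43 were lower in each of the 8 metals, 41 in each of the 3 replicate numbers, and 44 had a difference below 0 in tantalum alone. The 46 were called on the mean over these same arrays, so that these counts describe the calls and are no separate support for them.

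The size of the difference moved with the replicate number. Its median over the 73 genes was -0.34 in replicate 1, -0.10 in replicate 2 and -0.15 in replicate 3. Without replicate 1, 35 genes were lower and 5 higher, with a median of -0.11. With the 12 means of month and replicate number over the metals as the only data points, a fit chosen after the data were seen, 26 were lower and 2 higher. In each of the 21 settings tried 26 and 2 genes were called. Those settings include the fit to 12 means, so that this count could not exceed the count of that fit. Unless stated otherwise, the SEs and adjusted p-values by complex and for other lists of genes below are from the fit to all arrays. That fit takes arrays that share a month and replicate number as independent, so these values may be too small. The calls lost with the 12 means were those of Atp5f1b, Atp5if1, Atp5mf, Atp5mg, Atp5pf, Atp5po, Cox4i1, Cox6a2, Cox6b1, Cox7a2l, Cox8a, Ndufa7, Ndufa10, Ndufa13, Ndufb2, Ndufb9, Ndufb10, Ndufs1, Uqcrb, Uqcrc1, Uqcrfs1 and Uqcrh.

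Calls were made mainly at the first 2 of the 3 steps between months. From 1 to 3 months (9 metals, 27 arrays each) 28 genes were lower and 0 higher, with a median of -0.09, where 11.4% of all probe sets were lower and 10.9% higher. From 3 to 6 months 36 were lower and 9 higher, with a median of -0.09 (22.2% and 21.5% of all probe sets). From 6 to 12 months 2 were lower and 0 higher (1.36% and 3% of all probe sets). At an unadjusted p below 0.05, 8 were higher and 2 lower, against 2444 higher and 1456 lower of all 22954 probe sets. The share of these genes that was higher at that level was thus near the share of all probe sets. The calls of the first step fell to between 14 and 17 without 1 replicate number and to 0 with the 12 means, which left 14 calls at the second step and 0 at the third. The most common course, in 26 genes, was no call at the first step and a lower level at the second step and at 12 months, and 8 genes were lower at both steps and at 12 months.

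**Figure D2:**
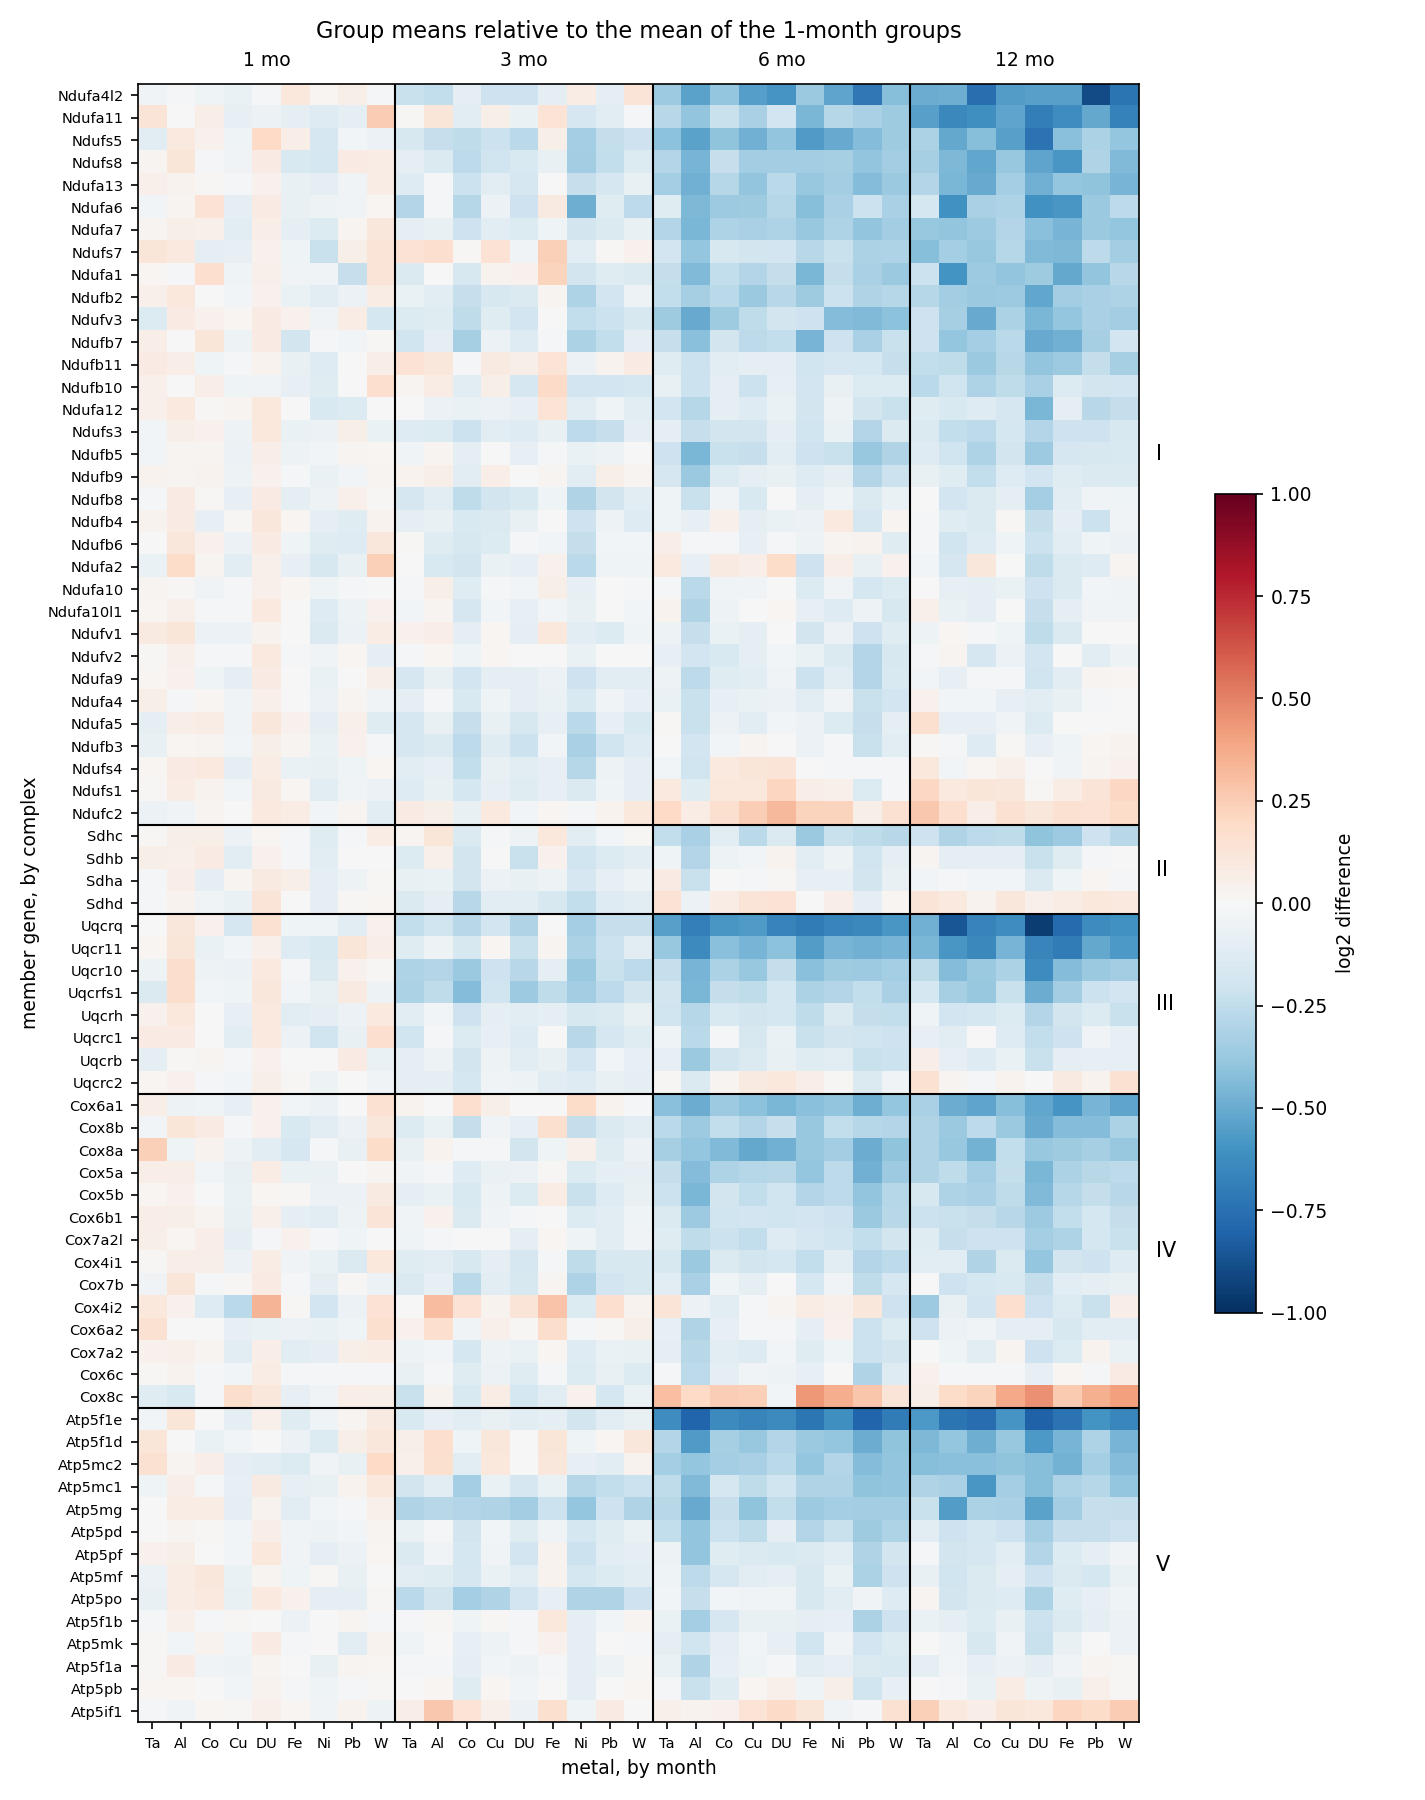
Mean log2 level of each of the 73 genes (rows, by complex) in each of the 35 groups (columns, by month and metal), as the log2 difference from that gene's mean over the 1-month groups, with blue for lower and red for higher. Uqcrq, Atp5f1e, Ndufa11, Ndufa4l2 and Uqcr11, whose differences at 12 months lie between -0.70 and -0.59, are among the darkest blue rows at 6 and 12 months, and Cox8c is red there.

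In complex I, 19 of 33 genes were lower and 2 higher at 12 months than at 1 month, with a median of -0.21. These counts, and those of the other complexes, stand against 20.7% lower and 23.4% higher over all probe sets. Ndufa11, an accessory subunit of the membrane arm, ran from 9.95 to 10.56 (median 10.19) on the arrays of 1 month, from 9.53 to 10.32 (median 9.88) at 6 months and from 9.28 to 9.90 (median 9.62) at 12 months. Every 12-month array lay below every 1-month array. The difference was -0.62 ± 0.05 (adjusted p = 2.65e-19), lower in 8 of 8 metals, and Ndufa11 was lower again from 6 to 12 months (-0.28 ± 0.05, adjusted p = 1.48e-05).

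Ndufb11, another accessory subunit of the membrane arm, was the only other gene lower from 6 to 12 months (-0.15 ± 0.03, adjusted p = 8.29e-05). Its arrays ran from 9.89 to 10.21 (median 10.06) at 1 month, from 9.70 to 10.09 (median 9.90) at 6 months and from 9.52 to 9.90 (median 9.75) at 12 months, so that the first and last months met between 9.89 and 9.90 only. The difference over 12 months was -0.33 ± 0.03 (adjusted p = 7.7e-17), and the 3 replicate numbers gave -0.36, -0.36 and -0.26. Replicate 1 did not stand apart here, with 12-month means of 9.72, 9.71 and 9.82.

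Ndufs5, an accessory subunit, was lower at both of the first steps and over 12 months (-0.48 ± 0.05, adjusted p = 1.81e-14). Its arrays ran from 8.58 to 9.18 (median 8.86) at 1 month and from 7.79 to 8.67 (median 8.47) at 12 months, which overlap. Among the core subunits that carry electrons, the iron-sulfur proteins Ndufs8 and Ndufs7 were lower (-0.46 ± 0.06, adjusted p = 9.49e-11 and -0.39 ± 0.06, adjusted p = 2.39e-08). Without replicate 1 the Ndufs7 difference was -0.26. The Ndufs8 difference was -0.74, -0.22 and -0.43 in the 3 replicate numbers.

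Ndufs1, the large iron-sulfur subunit of the NADH-oxidising module, was higher at 12 months by 0.11 ± 0.03 (adjusted p = 0.00511) after being lower at 3 months (-0.10 ± 0.03, adjusted p = 0.00799). The call at 12 months was lost in the fit to 12 means (adjusted p = 0.144). Its arrays overlapped, running from 11.37 to 11.73 (median 11.53) at 1 month and from 11.42 to 11.83 (median 11.65) at 12 months. Ndufv1, which binds FMN and takes the electrons from NADH, had a difference of -0.08 ± 0.04 (adjusted p = 0.142). Ndufc2, an accessory subunit of the membrane arm, was higher by 0.15 ± 0.03 (adjusted p = 5.81e-05). Its arrays ran from 10.62 to 10.96 (median 10.82) at 1 month and from 10.78 to 11.12 (median 10.97) at 12 months, which overlap, and its replicate numbers gave 0.19, 0.12 and 0.14.

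Ndufa4 is named for complex I but is now counted to complex IV, and its paralog Ndufa4l2 is known as a target of hypoxia signalling and was not above the brightest control on any array. Ndufa4 had a difference of -0.04 ± 0.04 (adjusted p = 0.36), with arrays from 11.97 to 12.20 (median 12.06) at 1 month and from 11.85 to 12.30 (median 12.01) at 12 months. Ndufa4l2 was lower (-0.62 ± 0.07, adjusted p = 8.57e-12), with arrays from 6.38 to 7.24 (median 6.75) at 1 month and from 5.53 to 6.62 (median 6.14) at 12 months. The months overlapped for Ndufa4l2 between 6.38 and 6.62. Whether the paralogs differ from each other was not tested.

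In complex II, 1 of 4 genes was lower and 0 higher, a share of 25% that is near the 20.7% of all probe sets. Sdhc, a membrane anchor, was lower (-0.30 ± 0.05, adjusted p = 5.14e-07), with arrays from 10.43 to 10.80 (median 10.64) at 1 month and from 9.90 to 10.58 (median 10.44) at 12 months. Its 12-month means by replicate number were 10.47, 10.46 and 10.10, so that here replicate 3 was low. The catalytic flavoprotein Sdha had a difference of -0.05 ± 0.03 (adjusted p = 0.257) and the iron-sulfur subunit Sdhb one of -0.09 ± 0.04 (adjusted p = 0.0508). Sdhd, the other anchor, was lower at 3 months (-0.15 ± 0.05, adjusted p = 0.0121) and higher from 3 to 6 months (0.20 ± 0.05, adjusted p = 0.000294). Over 12 months it had 0.08 ± 0.05 (adjusted p = 0.202) over all arrays and 0.20, adjusted p = 0.000145 without replicate 1, its 12-month means being 10.91, 11.22 and 11.26.

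In complex III, 7 of 8 genes were lower and 0 higher, with a median of -0.24. Uqcrq, a small subunit, had the largest difference of the 73 genes. Its arrays ran from 9.98 to 10.52 (median 10.36) at 1 month, from 9.86 to 10.42 (median 10.07) at 3 months, from 9.42 to 10.02 (median 9.68) at 6 months and from 8.94 to 10.04 (median 9.68) at 12 months. The first and last months overlapped only between 9.98 and 10.04. The difference was -0.70 ± 0.05 (adjusted p = 8.64e-20), a ratio of 0.614, and was -0.83, -0.50 and -0.78 in the 3 replicate numbers. In the limma fit to 12 means it was -0.70 ± 0.09 (adjusted p = 7.68e-05).

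The small subunits Uqcr11 and Uqcr10 were lower (-0.59 ± 0.08, adjusted p = 1.34e-08 and -0.41 ± 0.07, adjusted p = 6.65e-07). For Uqcr11 replicate 2 differed least, the 3 values being -0.63, -0.17 and -0.97. Uqcrfs1, the Rieske iron-sulfur protein that hands electrons to cytochrome c1, was lower (-0.30 ± 0.07, adjusted p = 0.00011), with arrays from 10.08 to 10.50 (median 10.28) at 1 month and from 9.39 to 10.50 (median 9.91) at 12 months, which overlap. Its replicate numbers gave -0.54, 0.10 and -0.47, and the call was lost without replicate 1 (-0.19, adjusted p = 0.126). The core subunits Uqcrc1 and Uqcrc2 had -0.14 ± 0.05 (adjusted p = 0.0214) and 0.05 ± 0.03 (adjusted p = 0.184), and the Uqcrc1 call was also lost without replicate 1 (-0.04, adjusted p = 0.556).

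**Figure D3:**
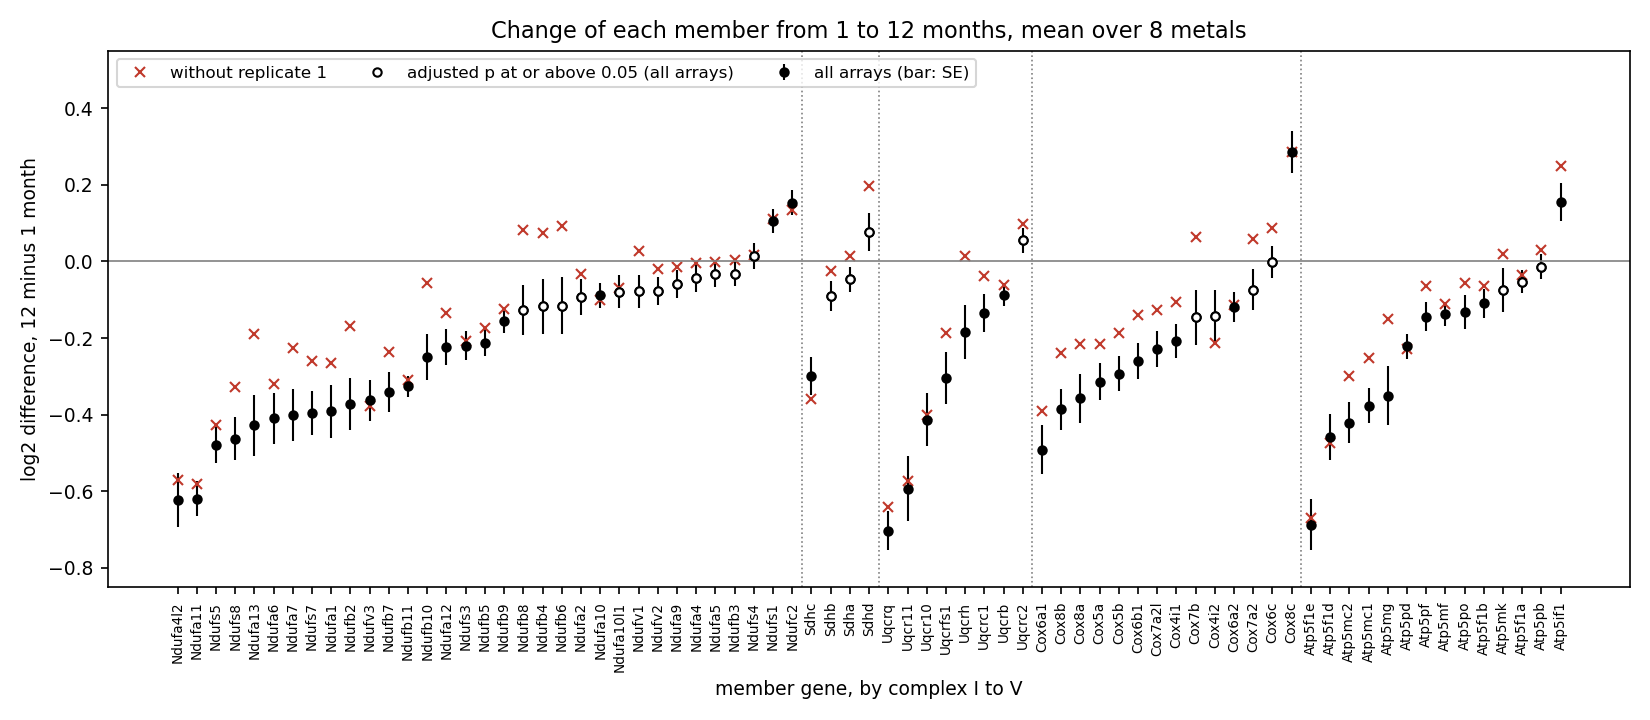
Log2 difference between 12 and 1 months (vertical axis) for each of the 73 genes (horizontal axis, by complex), as the mean over 8 metals with its SE, filled where the adjusted p was below 0.05, with crosses for the value without replicate 1. Uqcrq is lowest at -0.70 and Cox8c highest at 0.29, and the median moves from -0.18 to -0.11 without replicate 1.

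In complex IV, cytochrome c oxidase, 9 of 14 genes were lower and 1 higher, with a median of -0.22. Several of its subunits exist as isoforms, a general one and one found mainly in heart and skeletal muscle. Cox6a1, the general isoform of subunit 6A, was lower (-0.49 ± 0.06, adjusted p = 9.44e-10), with arrays from 9.38 to 9.88 (median 9.55) at 1 month and from 8.68 to 9.53 (median 9.02) at 12 months. Cox6a2, its muscle isoform, was lower (-0.12 ± 0.04, adjusted p = 0.0105), with arrays from 12.55 to 12.94 (median 12.69) and from 12.46 to 12.73 (median 12.60), a call lost without replicate 1 (-0.11, adjusted p = 0.0773). The months overlapped for both genes, and whether the isoforms differ from each other was not tested.

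For subunit 8, the general isoform Cox8a (-0.36 ± 0.06, adjusted p = 2.29e-06) and the muscle isoform Cox8b (-0.39 ± 0.05, adjusted p = 5.2e-09) were both lower. Their 12-month means by replicate number were 8.64, 9.21 and 8.95 for Cox8a and 8.56, 9.01 and 9.01 for Cox8b, replicate 1 being lowest in both. Without it the differences were -0.21 for Cox8a and -0.24 for Cox8b, and the Cox8a call was lost in the fit to 12 means (adjusted p = 0.0545). Cox8c, an isoform known mainly from testis, was higher by 0.29 ± 0.05 (adjusted p = 1.08e-05), with arrays from 6.27 to 7.21 (median 6.68) at 1 month and from 6.60 to 7.39 (median 6.93) at 12 months. Cox8c was not above the brightest control on any array. The months overlapped widely for it, and its replicate numbers gave 0.29, 0.29 and 0.28.

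The general isoform Cox4i1 was lower (-0.21 ± 0.05, adjusted p = 9.73e-05), a call lost without replicate 1 (-0.11, adjusted p = 0.0601). Cox4i2, known from lung and from low oxygen and also not above the brightest control on any array, had a difference of -0.14 ± 0.07 (adjusted p = 0.0782), with arrays from 4.94 to 5.95 (median 5.50) at 1 month and from 4.79 to 5.81 (median 5.34) at 12 months. Cox7a2l, which takes part in supercomplexes of III and IV, was lower (-0.23 ± 0.05, adjusted p = 2.98e-05), also lost without replicate 1 (-0.13, adjusted p = 0.064), and Cox6b1, on the intermembrane side, was lower (-0.26 ± 0.05, adjusted p = 4.29e-06). The Cox6b1 difference was -0.14 without replicate 1, and its call was lost in the fit to 12 means (adjusted p = 0.0593). No call was made for the small subunits Cox7a2 (-0.07 ± 0.05, adjusted p = 0.262), Cox7b (-0.15 ± 0.07, adjusted p = 0.0941) and Cox6c (-0.0017 ± 0.04, adjusted p = 0.978).

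In complex V, the ATP synthase, 10 of 14 genes were lower and 1 higher, with a median of -0.14. Atp5f1e, the epsilon subunit of the central stalk, ran from 11.77 to 12.13 (median 11.98) at 1 month, from 11.75 to 12.04 (median 11.88) at 3 months, from 10.73 to 11.72 (median 11.33) at 6 months and from 10.80 to 11.79 (median 11.27) at 12 months. The first and last months met only between 11.77 and 11.79, and the difference was -0.69 ± 0.07 (adjusted p = 2.07e-14). By replicate number it was -0.72, -0.35 and -0.99. Atp5f1d, the delta subunit of the same stalk, was lower (-0.46 ± 0.06, adjusted p = 1.5e-09), with -0.43, -0.21 and -0.74.

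Atp5mc1 and Atp5mc2 encode the same mature c subunit of the rotor ring and were lower (-0.38 ± 0.05, adjusted p = 1.23e-10 and -0.42 ± 0.05, adjusted p = 3.62e-10). In the catalytic core, the beta subunit Atp5f1b was lower (-0.11 ± 0.04, adjusted p = 0.0115), a call lost without replicate 1 (-0.06, adjusted p = 0.33), and the alpha subunit Atp5f1a had -0.05 ± 0.03 (adjusted p = 0.146). Atp5if1, which inhibits ATP hydrolysis by the enzyme, was higher by 0.16 ± 0.05 (adjusted p = 0.00739), with arrays from 9.07 to 9.45 (median 9.27) at 1 month and from 8.92 to 9.84 (median 9.44) at 12 months, which overlap. Its replicate numbers gave -0.03, 0.23 and 0.27, and the difference was 0.25 without replicate 1. The Atp5if1 call was lost in the fit to 12 means (adjusted p = 0.192). Atp5po, the stalk subunit that confers oligomycin sensitivity, was lower at 3 months (-0.24 ± 0.04, adjusted p = 7.82e-06) and higher again from 3 to 6 months (0.16 ± 0.04, adjusted p = 0.00154). Over 12 months Atp5po was lower (-0.13 ± 0.04, adjusted p = 0.0111), a call lost without replicate 1 (-0.06, adjusted p = 0.446).

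**Figure D4:**
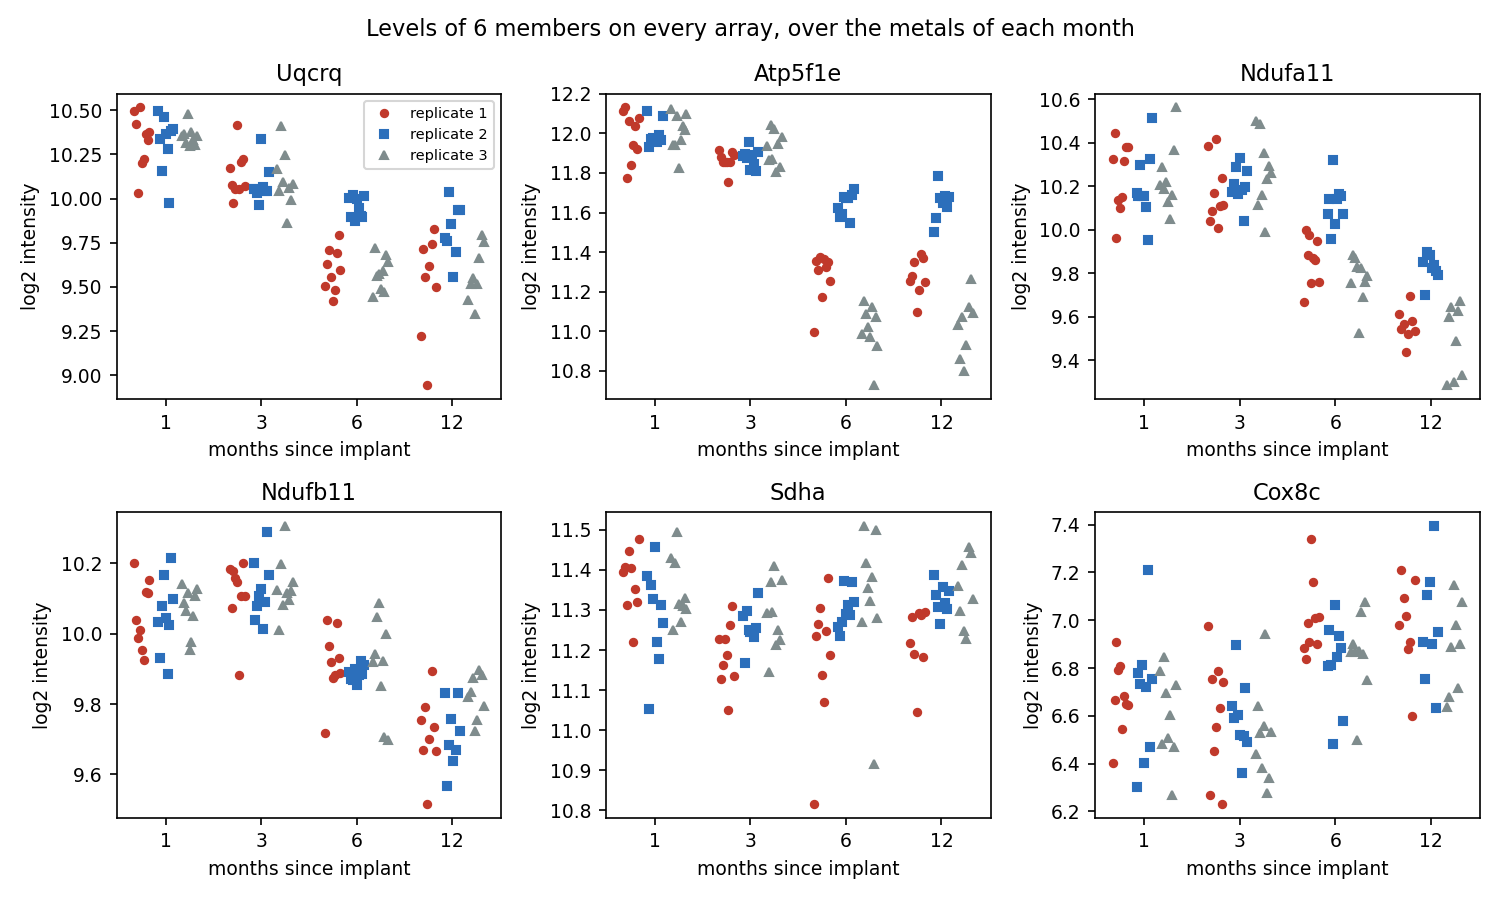
Log2 intensity (vertical axis) of 6 genes on each array, by months since implant (horizontal axis) and replicate number, with all metals of a month together. The medians at 1 and 12 months are 10.36 and 9.68 for Uqcrq, 11.98 and 11.27 for Atp5f1e, 10.19 and 9.62 for Ndufa11, 10.06 and 9.75 for Ndufb11, 11.33 and 11.30 for Sdha, 6.68 and 6.93 for Cox8c.

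For the 3-month difference, the 10 genes with the smallest p-values came from complexes I (Ndufb3, Ndufs5, Ndufa5 and Ndufs3), III (Uqcrfs1, Uqcrq and Uqcr10) and V (Atp5po, Atp5mc1 and Atp5mg), with differences between -0.29 and -0.14. Ndufb3, an accessory subunit of complex I, led with -0.18 ± 0.03 (adjusted p = 4.12e-06), its arrays running from 11.51 to 11.76 (median 11.62) at 1 month and from 11.29 to 11.70 (median 11.46) at 3 months. From 3 to 6 months Ndufb3 was higher by 0.11 ± 0.03 (adjusted p = 0.00122). The 9 genes that were higher from 3 to 6 months were Cox8c, Ndufc2, Ndufs1, Sdhd, Ndufs4, Ndufb3, Atp5po, Uqcrc2 and Ndufa2. Of these, Ndufs1, Sdhd, Ndufs4, Ndufb3, Atp5po and Uqcrc2 had been lower from 1 to 3 months.

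In tantalum muscle alone, with 3 arrays a month, fewer genes passed. From 1 to 3 months 0 of 73 were called (0.222% of all probe sets), with 1 lower at an unadjusted p below 0.05. From 1 to 6 months 4 were lower (2.37% of all probe sets), and from 1 to 12 months 8 were lower and 1 higher (4.38% and 3.46%). Ndufa11 in tantalum read 10.38, 10.32 and 10.37 at 1 month and 9.58, 9.81 and 9.67 at 12 months, which do not overlap, a difference of -0.67 ± 0.13 (adjusted p = 0.000299). Ndufb11 read 10.11, 10.21 and 10.11 at 1 month and 9.73, 9.83 and 9.88 at 12 months, also apart, with -0.33 ± 0.08 (adjusted p = 0.00321).

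Uqcrq in tantalum read 10.33, 10.38 and 10.30 at 1 month, 9.79, 9.90 and 9.68 at 6 months and 9.83, 9.94 and 9.79 at 12 months, with both later months below the first. Its differences were -0.55 ± 0.15 (adjusted p = 0.0164) at 6 months and -0.49 ± 0.15 (adjusted p = 0.0252) at 12 months. Ndufc2 was the gene that was higher, with 10.83, 10.81 and 10.62 at 1 month and 11.12, 11.05 and 11.09 at 12 months (0.33 ± 0.09, adjusted p = 0.0123). The other calls in tantalum were Atp5f1e at 6 months, Atp5f1d, Ndufs7 and Cox6a2 at 12 months, and Atp5mc2 and Cox8a at both, all lower. Without replicate 1 the counts of calls were 0 at 6 months and 1 at 12 months, without replicate 2 they were 6 and 7, and without replicate 3 they were 0 and 3.

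Neighbouring lists of mitochondrial genes are set here against the same 20.7% lower and 23.4% higher of all probe sets for 12 months against 1 month. Of 34 assembly factors, which build the complexes but are no part of them, 8 were lower (23.5%) and 6 higher (17.6%), with a median of -0.01, near those shares. Cox16, an assembly factor of complex IV, was higher by 0.47 ± 0.05 (adjusted p = 2.87e-12), and Uqcc2, which assembles complex III, was lower (-0.29 ± 0.05, adjusted p = 2.68e-07). Of 12 enzymes of the citric acid cycle, 5 were lower and 3 higher (median -0.05), among them malate dehydrogenase Mdh2 with -0.27 ± 0.05 (adjusted p = 4.4e-06). Of 11 carriers and channels, 5 were lower and 1 higher (median -0.05), and of 12 glycolysis genes 5 were lower and 2 higher (median -0.05).

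Of 5 genes of the respiratory chain whose names fall outside the rule, 4 were lower and 1 higher, including cytochrome c1 (Cyc1, -0.16 ± 0.06, adjusted p = 0.0395) and cytochrome c (Cycs, 0.12 ± 0.04, adjusted p = 0.016). Replicate 1 had the lowest mean of these 5 in 9 of 9 groups at 6 months and 8 of 8 at 12 months. The 12-month means by replicate number were 9.00, 9.32 and 9.37. Whether these calls hold without replicate 1 was not tested. Of 17 regulators of mitochondrial biogenesis, 5 were lower (29.4%) and 6 higher (35.3%), with a median of 0.03. The coactivator PGC-1alpha (Ppargc1a) was lower (-0.27 ± 0.08, adjusted p = 0.00223), as was Nrf1 (-0.13 ± 0.04, adjusted p = 0.0014), while the ETS factor subunit Gabpa was higher by 0.48 ± 0.05 (adjusted p = 9.21e-12) and Yy1 by 0.13 ± 0.05 (adjusted p = 0.0189).

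Markers of fibre type and of other cells differed over the same months. All 10 slow-fibre genes were lower at 12 months than at 1 month, with a median of -0.52, and the mean level of that list ran from 11.03 to 12.26 at 1 month and from 9.89 to 11.86 at 12 months. Of 11 fast-fibre genes 1 was lower and 1 higher (median 0.01), and of 8 muscle markers 2 were lower and 1 higher (median -0.06). All 9 matrix and fibroblast genes were lower (median -1.13), with list levels of 9.46 to 10.95 at 1 month and 8.38 to 9.16 at 12 months, as were all 5 endothelial genes (median -0.45, 8.44 to 9.09 and 8.00 to 8.56). So were 8 of 10 leukocyte genes (median -0.34, 6.13 to 7.72 and 5.88 to 6.76), 4 of 5 tendon genes and 2 of 3 Schwann cell genes, against 20.7% of all probe sets. Of the adipocyte genes 1 of 6 was lower and of the blood genes 1 of 4, near that share. The adipocyte list averaged 7.21 over the 9 groups of 1 month and 7.20 over the 8 groups of 12 months, and the blood list 7.75 and 7.66.

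In whole muscle, fewer cells or fibres of a type and less RNA per cell cannot be told apart, and the part of these lists in the differences of the respiratory chain genes was not tested. Over the deviations of all arrays of the 35 groups from their group means, the mean level of the 73 genes had a Pearson correlation of 0.77 with that of the assembly factors, 0.59 with the citric acid cycle and -0.42 with the endothelial genes. It was 0.38 with the muscle markers, 0.05 with the slow-fibre genes, 0.35 with the fast-fibre genes, -0.07 with the leukocyte genes and -0.09 with the matrix genes. These coefficients are descriptions, since the values of an array share its pool and its scaling.

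The 73 genes also varied together within groups. The median correlation between 2 genes over the same deviations was 0.42, from -0.70 to 0.95, and 2252 of 2628 pairs were above 0. Within complexes the median was 0.39 for I, 0.37 for II, 0.35 for III, 0.59 for IV and 0.39 for V. Of the 73, 49 had a correlation of at least 0.5 with the mean of the others and 18 of at least 0.8, led by Cox5b (0.94) and Cox6b1 (0.92), while Cox8c (-0.28) and Cox4i2 (-0.12) lay below 0. At 1 and 3 months 48 reached 0.5 and 6 reached 0.8. At 6 and 12 months, where replicate 1 lay low, 50 and 21 did. Whether these correlations are particular to the 73 genes was not tested. Over the 73 genes, the difference of replicate 1 from the others at 6 months and the difference of 12 months from 1 month had a correlation of 0.20 (Spearman's rho 0.22), over genes that are not independent.

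In the fit without the replicate number, no respiratory chain gene differed from tantalum of the same month at the threshold with any metal. Calls with the replicate number as a block are given at the end. In all 31 comparisons 0 of the 73 genes were called (limma), where the share of all probe sets called was at most 5.46%. At 1 month the share was 3.02% with lead, 0.797% with nickel, 0.00871% with tungsten, 0.131% with iron, 0.00871% with cobalt, 0.244% with depleted uranium, 0.322% with copper and 0.0261% with aluminum. At 3 months it was 0.0174% with lead, 3.42% with nickel, 0% with tungsten, 0.00436% with iron, 5.46% with cobalt, 0.00436% with depleted uranium, 0.0436% with copper and 0.118% with aluminum. At 6 months it was 0% with each metal, and at 12 months 0% with lead, 0% with tungsten, 0% with iron, 0.00436% with cobalt, 0.0915% with depleted uranium, 0.00436% with copper and 0% with aluminum. Up to 18 genes a comparison had an unadjusted p below 0.05, where 3.65 would be the mean if no gene differed. The comparisons share the tantalum arrays of their month. The 95% confidence interval of a difference reached a median of 0.27 to either side, and all 73 intervals lay within 1 of 0 in each comparison, so that smaller differences may be missed.

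**Figure D5:**
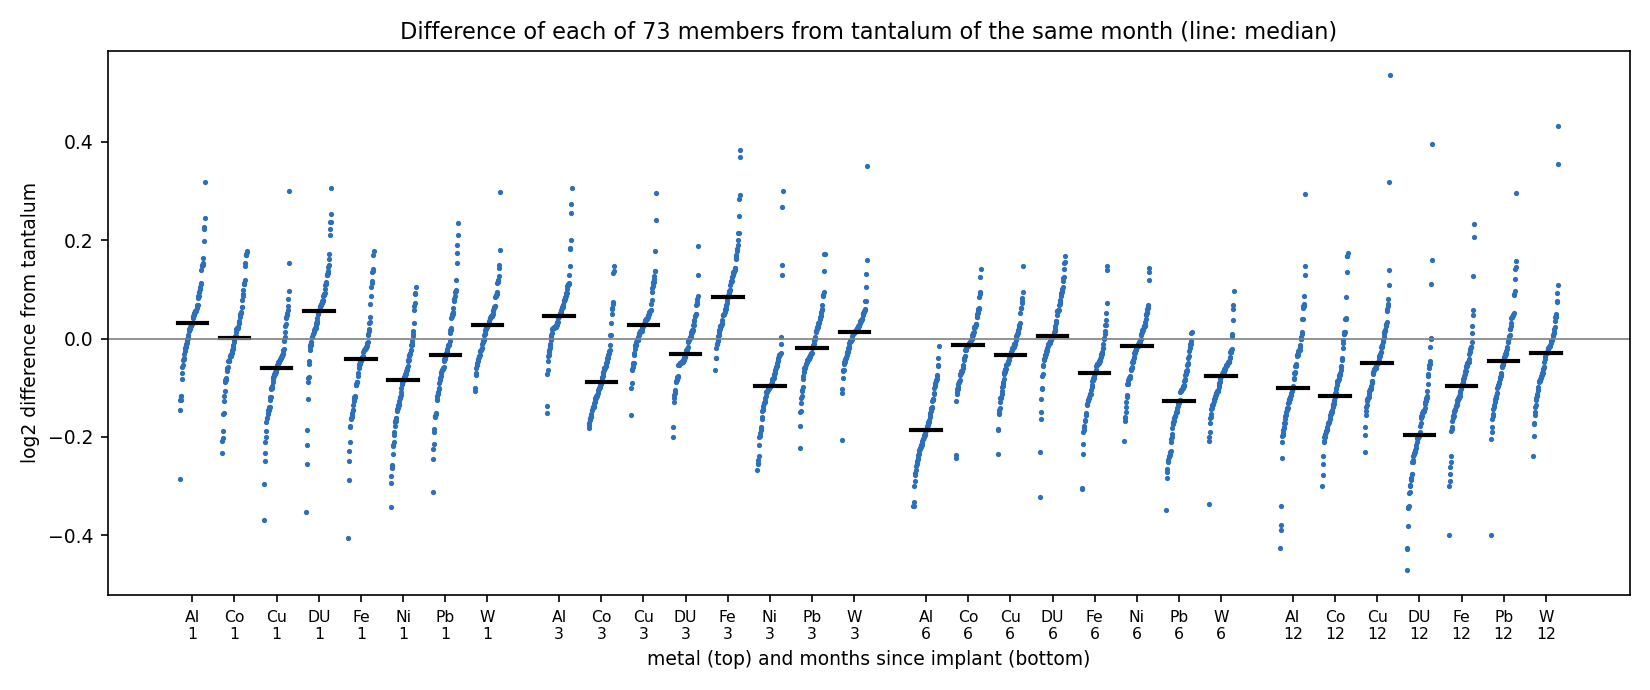
Log2 difference of each of the 73 genes between a metal and tantalum of the same month (vertical axis, 1 point per gene, ordered by size) for 31 combinations of metal and month (horizontal axis), with the median as a bar. No point passed the threshold in the fit without the replicate number, and the medians lie between -0.20 (depleted uranium, 12 months) and 0.08 (iron, 3 months).

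In the 3 comparisons with the most calls over all probe sets, the differences of these genes were small. With cobalt at 3 months they ran from -0.18 to 0.15 (median -0.09, 62 below 0), with nickel at 3 months from -0.27 to 0.30 (median -0.10, 68 below 0) and with lead at 1 month from -0.31 to 0.23 (median -0.03, 49 below 0). The smallest p with cobalt and with nickel at 3 months belonged to Ndufb11 (-0.16 ± 0.08, adjusted p = 0.292 and -0.20 ± 0.08, adjusted p = 0.178). With lead at 1 month it belonged to Uqcrb, a small subunit of complex III (0.17 ± 0.08, adjusted p = 0.23).

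Over all probe sets the median was -0.05 with cobalt and -0.02 with nickel at 3 months. Markers of other cells were higher in the same muscles. Of 10 leukocyte genes, 10 were higher with cobalt and 6 with nickel, with list levels of 8.75, 8.74 and 9.13 with cobalt and 7.88, 8.03 and 7.62 with nickel, against 6.95, 7.18 and 6.51 with tantalum. Of 9 matrix and fibroblast genes, 1 was higher with cobalt and 7 with nickel, with list levels of 9.79, 9.47 and 10.12 with cobalt and 10.33, 10.29 and 10.29 with nickel, against 9.26, 9.36 and 9.37 with tantalum. The arrays of cobalt and nickel lay above those of tantalum for both lists. The part of these markers in the differences of the respiratory chain genes was not tested.

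The lowest median of the list, -0.20, was with depleted uranium at 12 months, where 69 of 73 genes lay below 0. At an unadjusted p below 0.05, 17 were lower and 1 higher. Of all 22954 probe sets, 770 were lower and 1279 higher at that unadjusted level, and 11232 lay below 0. After adjustment 0.0915% of all probe sets were called. Uqcrq read 8.94, 9.86 and 9.35 with depleted uranium and 9.83, 9.94 and 9.79 with tantalum, which overlap, a difference of -0.47 ± 0.15 (adjusted p = 0.183). Ndufs5 read 7.79, 8.38 and 8.26 against 8.55, 8.61 and 8.55, which do not overlap (-0.43 ± 0.13, adjusted p = 0.174). Uqcrb read 10.19, 10.50 and 10.30 against 10.49, 10.71 and 10.65, which overlap at 1 edge (-0.29 ± 0.08, adjusted p = 0.152). In the limma fit with the replicate number as a block, Uqcrq and Ndufs5 were called (adjusted p = 0.0233 and 0.0398) and Uqcrb was not (adjusted p = 0.0746). The replicate numbers did not pair these arrays by the check described under processing. The mean level of all 73 was 9.91, 10.39 and 10.19 with depleted uranium and 10.19, 10.43 and 10.40 with tantalum, and that of the muscle markers 13.10, 13.12 and 12.99 and 13.10, 13.16 and 13.06. Without replicates 1, 2 and 3 in turn the median was -0.15, -0.25 and -0.16, and Uqcrq was called without replicate 2 (-0.67, adjusted p = 0.0416).

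At 6 months the list lay low with aluminum and lead together with the muscle markers of single arrays. With aluminum the median difference was -0.19 and all 73 genes lay below 0. Of all 22954 probe sets 13042 lay below 0, and their median was -0.03. At an unadjusted p below 0.05, 18 of the 73 and 677 of all probe sets were lower. After adjustment 0% of all probe sets were called. The smallest p of the 73 belonged to Uqcrb, which read 9.84, 10.36 and 10.34 with aluminum and 10.52, 10.46 and 10.42 with tantalum (-0.29 ± 0.08, adjusted p = 0.958). The mean level of the 73 was 9.91, 10.35 and 10.22 with aluminum and 10.25, 10.42 and 10.36 with tantalum, and that of the muscle markers 12.48, 13.12 and 13.10 and 13.03, 13.20 and 13.08. Without replicate 1 the median was -0.09, and after a second quantile normalization it was -0.07.

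With lead at 6 months the median was -0.13 and 71 of 73 genes lay below 0. Of all 22954 probe sets 13284 lay below 0, with a median of -0.04. At an unadjusted p below 0.05, 11 of the 73 and 1258 of all probe sets were lower. The smallest p of the 73 belonged to Atp5mf, a membrane subunit of ATP synthase (-0.27 ± 0.09, adjusted p = 0.537). The mean level of the 73 was 10.16, 10.40 and 10.06, and the muscle markers averaged 13.17, 13.18 and 12.44. The part of the muscle markers in these shifts was not tested.

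As means over the months of a metal, 1 gene was called in 8 comparisons. Ndufb11 was lower with nickel than with tantalum over 1, 3 and 6 months (-0.15 ± 0.05, adjusted p = 0.0434), where 0.985% of all probe sets were lower. It read 9.92, 9.89 and 9.98 with nickel and 10.11, 10.21 and 10.11 with tantalum at 1 month, which do not overlap. At 3 months it read 9.88, 10.01 and 10.12 against 10.20, 10.29 and 10.12, and at 6 months 9.88, 9.88 and 9.92 against 9.93, 9.88 and 10.0003, with the groups apart at 3 months (10.116 against 10.121 at their nearest) and overlapping at 6 months. The differences were -0.22, -0.20 and -0.04 in that order. The call was lost without replicate 1, 2 or 3 (adjusted p 0.393, 0.413 and 0.0809), with the other metals as the reference (-0.09, adjusted p = 0.166) and after a second quantile normalization (-0.11, adjusted p = 0.139).

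With the other 7 metals, the median over the 73 genes of the means over months lay between -0.06 with lead and -0.02 with tungsten, against -0.06 with nickel. In these 7 comparisons 0 of the 73 were called, where the share of all probe sets called was 0.139% with lead, 0% with tungsten, 0% with iron, 1.15% with cobalt, 0.0174% with depleted uranium, 0.0392% with copper and 0.187% with aluminum. Ndufb11 also had the smallest p with cobalt (-0.10 ± 0.04, adjusted p = 0.347), iron (-0.09 ± 0.04, adjusted p = 0.379) and tungsten (-0.07 ± 0.04, adjusted p = 0.829), all against the same tantalum arrays. No gene passed the F-test of whether a metal's difference from tantalum changed between months, in any of 8 metals, with 0 to 9 genes a metal at an unadjusted p below 0.05. The share of all probe sets called was 0.152% with lead, 1.22% with nickel, 0% with tungsten, 0% with iron, 4.18% with cobalt, 0.0174% with depleted uranium, 0% with copper and 0.0131% with aluminum. A further F-test asked for any difference between the metals without tantalum, over 1, 3 and 6 months. No gene passed it either, with 0 at an unadjusted p below 0.05, where 4.87% of all probe sets were called (limma).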

How the data were processed

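The deposited table holds a log2 intensity for each probe set and array. Per the submitters' processing notes, the authors made it by RMA in R 4.0.1 (package oligo). It is not given in the sources used here if the arrays were normalized together. RMA equalises the distribution of values between arrays, so differences are relative to the whole array. Of 22977 probe sets, 23 controls were left out and 22954 tested, with no filter on dim ones. Symbols came from the platform's annotation table, where 14855 probe sets had 1 symbol and 8099 none. Groups followed the labels' metal, month and replicate number.

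The fit, in limma 3.58.1 (R 4.3.3), estimated a mean for each of the 35 groups from all arrays together, with 70 residual degrees of freedom and 7.25 prior ones from eBayes. Each metal was compared with tantalum by month (31 comparisons) and as the mean over months (8), months with each other over the metals (4) and within tantalum (3), with 9 F-tests. All p-values are two-sided. In each comparison they were adjusted over the 22954 probe sets by Benjamini and Hochberg's method, and 0.05 was the threshold. The scripts were tested on simulated data. The number of arrays limits the precision.

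Deviations from group means of metal and tantalum arrays with the same replicate number correlated by more than 0.1 in every pair in 0 of 8 comparisons at 1 month, 0 of 8 at 3 months, 8 of 8 at 6 months and 5 of 7 at 12 months. In those at 6 and 12 months the numbers were taken to pair the arrays, from the data and not from the labels. The main fit did not use this pairing, so its SEs include the spread between replicate numbers. Counts of calls with the replicate number as a block are given at the end.

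The genes named are, for each comparison, up to 10 called members a direction with the smallest adjusted p, or up to 3 with the smallest p where none was called; 3 a complex by the SD of group means; the isoform sets, the Sdh genes and some core subunits throughout; and up to 4 a list for other lists. Outside this rule, Cyc1, Nrf1, Yy1 and Ppargc1a were named for their roles, Cox5b and Cox6b1 for their correlation, and some members beside a comparison for which another had named them, after their values were seen. This group of genes and the lists were chosen with earlier results of these data known, although the rule for its members uses names only. Alternatives were a replicate block, array weights, a robust fit with an intensity trend, quantile normalization a second time, a filter on the dimmest 30% of probe sets, adjustment over the family of comparisons, other sets of arrays or references, and leaving out replicates or metals. A random block of month and replicate number and a fit to 12 means were added after the data were seen. Promoter sequences are from RefSeq, build GRCr8.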

Additional observations from a re-analysis of the deposited data

How the results depend on the processing

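Of 4786 values of named genes under an alternative, over 330 pairs of gene and comparison, 4572 kept their side of the threshold, 148 were no longer called, 64 were newly called and 2 changed sign, where a change of sign counted only if the value was called before or after it. These 2 were Uqcrfs1 from 3 to 6 months without replicate 2 (-0.16, adjusted p = 0.00143, against 0.11 without replicate 1) and Atp5f1a from 3 to 6 months after a second quantile normalization (0.0037, adjusted p = 0.906). The cause of the changes given here was not tested. Of the 330 pairs, 59 were named for a call, and the others because no gene was called or by a fixed list. A pair with no call could not lose one, so the 4572 are no measure of how firm the calls are.

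With the replicate number as a block, the count of calls was 11 instead of 0 for metals against tantalum by month, all lower, 5 of them with depleted uranium at 12 months (Uqcr10, Uqcrq, Ndufa5, Ndufs5 and Ndufb8). It was 4 instead of 1 as means over months (4 with nickel), 41 instead of 13 within tantalum (19 instead of 4 at 6 months and 22 instead of 9 at 12 months), 9 instead of 2 from 6 to 12 months, 7 instead of 0 for the change between months and 1 instead of 0 for differences among metals. None of the 11 lay in a comparison whose replicate numbers paired the arrays by the check, which ran over all probe sets and asked for more than 0.1 in every pair. Depleted uranium at 12 months missed it through replicate 2 (0.0892), with 0.117 for replicate 1 and 0.167 for replicate 3. In the comparisons that passed the check the block changed no call.

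A second quantile normalization gave 1 call by month, 0 as means over months (nickel included) and 8 within tantalum at 6 months. Arrays of the same month alone gave 1 call by month. Adjustment over the family gave 0 as means over months, 5 from 6 to 12 months and 2 within tantalum at 6 months, the other metals as the reference gave 0 as means over months, and leaving out depleted uranium gave 5 from 6 to 12 months. The fit to 12 means gave 42 calls over the month comparisons instead of 125, with 0, 14 and 0 for the 3 steps and 28 for 12 months against 1 month, and the random block gave 13 for the first step.

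Leaving out 1 replicate number gave 0 to 1 calls by month, 0 as means over months, 14 to 17 for the first step, 1 to 2 for the third, 1 to 13 within tantalum (0 to 6 at 6 months and 1 to 7 at 12 months) and 0 to 1 with depleted uranium at 12 months.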
